A study of Homo sapiens with 16 samples.

Results

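The zinc proteases that cut the extracellular matrix and shed proteins from the cell surface were examined together with their tissue inhibitors in A375 melanoma cells and catalase-transfected clones. The set held every gene whose symbol names a matrix metalloproteinase (MMP), an ADAM or ADAMTS protease or a tissue inhibitor of metalloproteinases (TIMP). It contained 64 of the 18417 genes that the array measures with a probe set carrying 1 gene symbol, namely 22 MMP, 4 TIMP, 21 ADAM and 17 ADAMTS genes. Of the 21 ADAM genes, 12 were classed as catalytic, 7 as non-catalytic and 2 as pseudogenes or uncertain. MMP16 and TIMP3 had 2 probe sets each, and the probe set with the higher mean over all arrays was used. Total RNA was hybridized to whole-transcript Affymetrix arrays (Human Gene 1.0 ST), and each of the 4 groups had 4 arrays labelled as biological replicates. A7 and G10 cells carry human catalase cDNA in the pcDNA3 vector, and each is a single clone obtained by clonal dilution. PCDNA3 cells carry the empty vector. A375 cells, a human amelanotic melanoma line, were not transfected and are the parent of the other groups. The transfectants were selected in 1500 µg/ml geneticin and kept in 700 µg/ml, so A7, G10 and PCDNA3 cells share the drug and A375 cells lack it. Effects of catalase cannot be told apart from differences between single clones.

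MMPs are made as inactive precursors and degrade collagens, proteoglycans and other matrix proteins once their propeptide is removed. ADAMs sit in the plasma membrane, where the active members release growth factors, cytokines and adhesion molecules, while ADAMTS proteases are secreted and cut procollagens and matrix proteoglycans. TIMPs bind the active site of these enzymes, and in melanoma both sides of the balance have been studied for their part in invasion.

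All levels below are log2 intensities and all changes are log2 fold changes, so a change of 1 is a doubling. Control means the A375 and PCDNA3 group means averaged with equal weight. Calls are adjusted p values under 0.05 in limma, corrected over all 33297 transcript clusters of a comparison. Olfactory receptor genes gave a level for unexpressed genes of 5.17, the 95th percentile over their 379 clusters. Genes with a mean above it in at least 1 group are called expressed here, a label that does not prove expression. If only 1 of the groups compared reached the level, a change is written as "at least", with arrays under the level raised to it. Nothing in the labels says that the replicates came from separate cultures, so the p values measure the spread between these arrays. RNA was taken from whole cultures, in which fewer cells of a type and less RNA per cell cannot be told apart.

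Arrays of a group correlated at r of at least 0.9844 over all clusters. In G10, replicates 1 and 2 correlated at 0.9941 and replicates 3 and 4 at 0.9918, against 0.9844 to 0.9871 across these pairs, and the labels name no batch for this split. Changes of the set in G10 were therefore also computed without each pair, a step added after seeing the data. This was not done for CAT, the markers or the regulators given below. The median r within a group was 0.9863 in G10 and 0.9920 to 0.9922 in the others. Correlations across such pairs were computed only in G10, and no fit left out such pairs of other groups. Some genes of the set split likewise in another group, while others did not. ADAMTS1 in A7, for example, read 5.97 and 5.99 for replicates 1 and 2, and 6.30 and 6.35 for 3 and 4. Of the melanocyte lineage markers, 8 of 9 were measured and all 8 exceeded the unexpressed level in at least 1 group. Their summed log2 level was 70.1 to 72.6 in A7, 67.8 to 71.0 in G10, 61.5 to 68.4 in PCDNA3 and 61.9 to 65.2 in A375 cells. In A7 vs control, TYRP1 rose by 2.35 (adjusted p = 2.33e-06), TYR by 1.81 (adjusted p = 0.0299) and MLANA by 1.29 (adjusted p = 0.0358). In G10 vs control, PMEL rose by 2.46 (adjusted p = 0.000939) and TYRP1 by 1.58 (adjusted p = 4.43e-05). TYRP1 also rose by 1.28 in PCDNA3 vs A375 (adjusted p = 0.0432). MITF, SOX10, S100B and S100A1 were called in no comparison. Of the other lists, 3 of 4 fibroblast, 1 of 3 immune, 1 of 3 keratinocyte and 0 of 3 endothelial markers exceeded the unexpressed level, and DCN, PTPRC, CD3E, KRT5 and DSG3 did not. LUM rose by 0.91 in A7 (adjusted p = 0.0172) and CD68 by 0.58 in G10 (adjusted p = 0.0139). The summed levels were 21.3 to 21.7 in A7, 19.9 to 22.1 in G10, 20.3 to 21.8 in PCDNA3 and 21.4 to 22.2 in A375 cells for the fibroblast list. For the immune list they were 17.0 to 17.7 in A7, 17.1 to 18.0 in G10, 16.9 to 17.8 in PCDNA3 and 17.1 to 17.6 in A375 cells, and the part of these genes in the results was not tested. CAT, the transfected gene, averaged 9.02 ± 0.08 in A7 and 8.27 ± 0.38 in G10 cells, against 8.56 ± 0.10 in PCDNA3 and 8.73 ± 0.20 in A375 cells (SD, n = 4 each). Its change against control was 0.37 in A7 (adjusted p = 0.124) and -0.38 in G10 (adjusted p = 0.0526), so neither clone showed a called rise of CAT. CAT fell by 0.75 in G10 vs A7 (adjusted p = 0.00221), without overlap of the clones. Whether its probe set covers the transfected cDNA is not known here.

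Of the 64 genes, 37 (57.8%) had a group mean above the unexpressed level, against 62.7% of all clusters and 74.8% of all genes with a probe set of 1 symbol, and 27 stayed below it in every group. On single arrays, 28 genes were above the level on all 16 arrays, 24 on none and 12 on some. Above it in at least 1 group were 12 MMP, 11 ADAM and 10 ADAMTS genes and all 4 TIMP genes. Both matrilysins, MMP7 and MMP26, stayed below it, as did the sperm proteins ADAM2 and ADAM18, the enamel protease MMP20 and the macrophage elastase MMP12. The median SD of the members within a group was 0.15 in A7, 0.17 in G10, 0.15 in PCDNA3 and 0.12 in A375 cells.

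**Figure D1:**
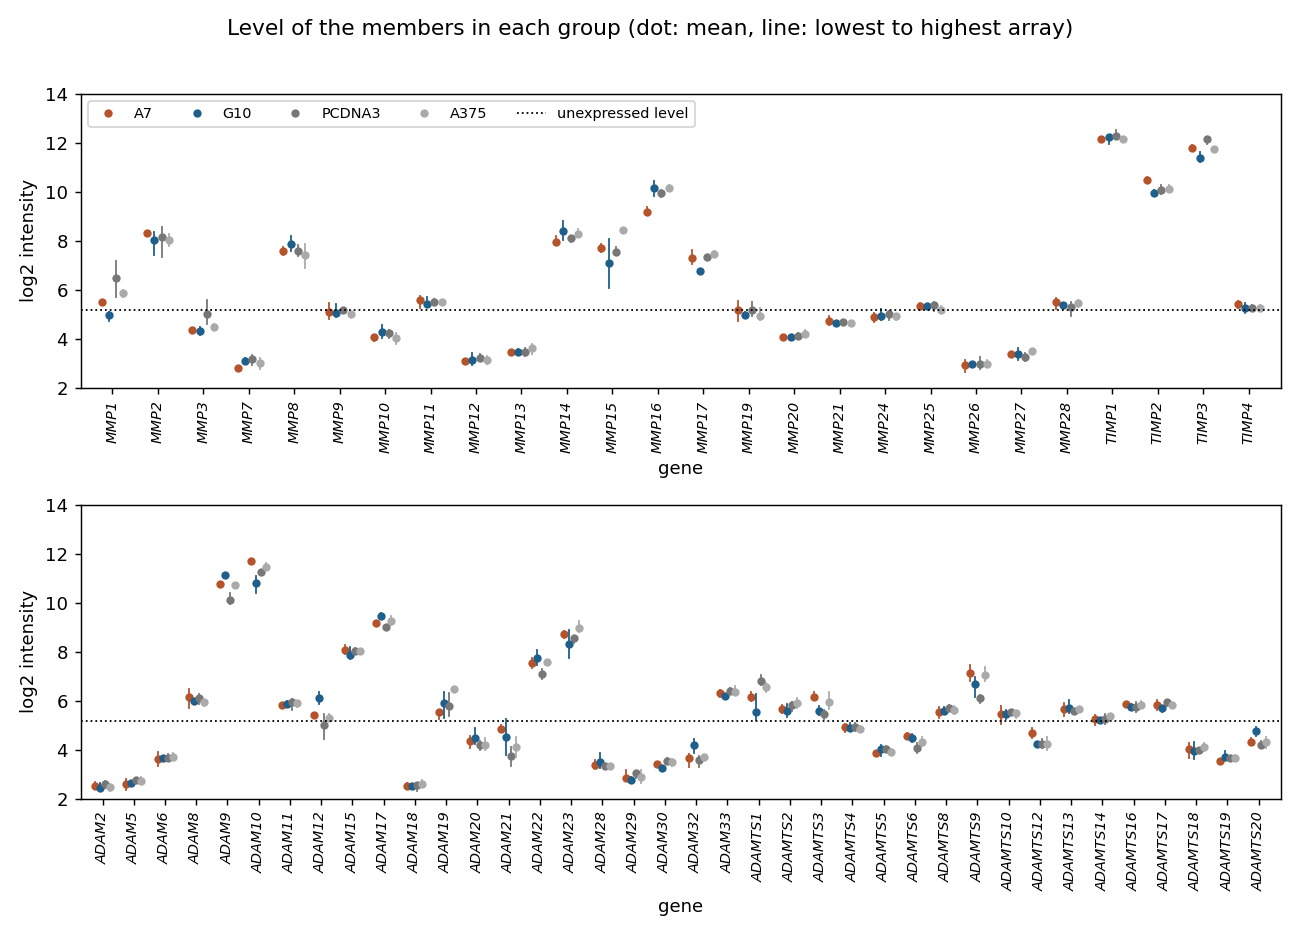
Level of the 64 genes as log2 intensity in A7, G10, PCDNA3 and A375 cells, with MMP and TIMP genes above and ADAM and ADAMTS genes below. Dots are means of 4 arrays, lines run from the lowest to the highest array, and the dotted line is the unexpressed level of 5.17, which 27 genes did not reach in any group mean. Probe sets differ in brightness, so levels of different genes are not compared.

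In A7 vs control, MMP16 was downregulated and TIMP2, ADAM9 and ADAMTS3 were upregulated among the expressed members. Of the 64 genes, 7 passed the test (10.9%), against 5.69% of all clusters. All clusters include 12083 without a gene symbol, while every member has 1 symbol. With only clusters of 1 symbol tested, 12 members passed, against 9.84% of those clusters. Upregulated were 6 members (3.46% of all clusters) and downregulated was 1 (2.23% of all clusters). ADAM21, ADAMTS12 and ADAMTS6 also passed upward, but both sides of the comparison lay below the unexpressed level, so no size is given. The median change was -0.03 over the members and -0.02 over all clusters. The count of 7 was 3 without A7 replicate 1 and 4 without A7 replicate 2, 3 or 4, where the calls over all clusters, 1895 with every array, were 1073, 1214, 1321 and 1499 for replicates 1 to 4. It was 3 with A375 cells alone as control (1388 of all clusters) and 11 with PCDNA3 cells alone (1573 of all clusters).

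G10 vs control showed more changes, in both directions. Of the 64 genes, 15 passed the test (23.4%), against 17.8% of all clusters. With only clusters of 1 symbol tested, 15 members again passed, against 26.7% of those clusters, so the members did not exceed that share. With only clusters above the unexpressed level tested, 10 of the 37 members above it passed (27%), against 30% of those clusters. Downregulated were 8 members (7.9% of all clusters), among them 4 of 22 MMP, 2 of 21 ADAM, 1 of 17 ADAMTS and 1 of 4 TIMP genes. Upregulated were 7 members (9.92% of all clusters), of which 5 were ADAM and 2 ADAMTS genes, with 0 of 22 MMP genes (limma, where 5 MMP genes had an unadjusted p under 0.05 in either direction) and 0 of 4 TIMP genes (1 with an unadjusted p under 0.05). Of these 5 ADAM genes, ADAM22 and ADAM32 are non-catalytic. MMP3, ADAM30, ADAM32, ADAMTS6 and ADAMTS20 had both sides below the unexpressed level. The median change was -0.04 over the members and also -0.04 over all clusters.

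Between the clones, G10 vs A7 called 12 of the 64 genes (18.8%), against 15.2% of all clusters. Of the clusters with 1 symbol, tested alone, 23.4% were called. MMP16, ADAM9 and ADAM12 were higher in G10 than in A7, among the 5 members that passed upward (7.83% of all clusters). ADAM10, ADAMTS1, ADAMTS3, MMP17, TIMP2 and TIMP3 were lower in G10 than in A7, among the 7 that passed downward (7.38% of all clusters). Of these genes, MMP16, TIMP2 and ADAMTS3 were called in A7 vs control but not in G10 vs control. ADAM32 and ADAMTS20 upward and ADAMTS12 downward had both sides below the unexpressed level. Since both clones were set against the same control arrays, this contrast is also the test of whether their changes differ. The median change was -0.04 over the members and -0.01 over all clusters.

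Few clusters were called between the controls in the fit to all groups, which share 1 estimate of the spread. PCDNA3 vs A375 called 1 of the 64 genes (1.56%), ADAM9, against 0.123% of all clusters, while 12 members had an unadjusted p under 0.05. ADAM9 was downregulated (0.0781% of all clusters were called lower), and 0 members were upregulated (0.045% of all clusters were called higher). The call was lost without A375 replicate 1, 2 or 4 or PCDNA3 replicate 1, 2 or 4 (adjusted p up to 0.114). The share of all clusters called between the controls depended on the arrays in the fit. It was 4.06% without G10 replicates 3 and 4 and 3.15% without G10 replicates 1 and 2. With only the arrays compared it was 1.29%, and without A375 replicate 2 it was 0.00601%. The low count in the main fit therefore does not show that the controls were alike. Over the 3 clone comparisons, 20 members were called at least once (31.2%), against 23.7% of all clusters, and 44 were not called. No share over clusters with 1 symbol alone was computed for this count.

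**Figure D2:**
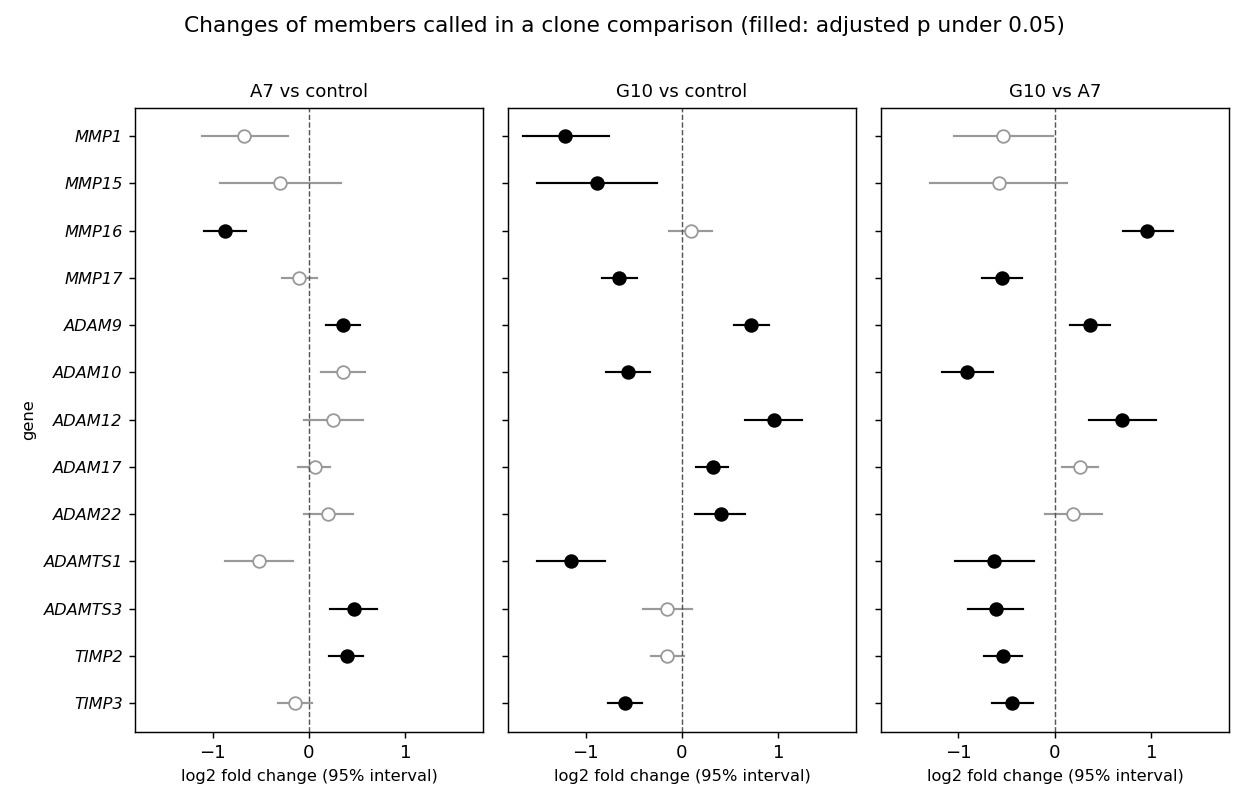
Log2 fold change with its 95% interval for the members called with at least 1 side above the unexpressed level, in A7 vs control, G10 vs control and G10 vs A7. Filled points have an adjusted p under 0.05. MMP16 lies at -0.87 in A7 vs control and at 0.09 in G10 vs control. ADAMTS1 lies at -1.15 in G10 vs control. MMP1 is drawn there at its measured difference of -1.21, and ADAM12 at 0.95, although G10 for MMP1 and the control for ADAM12 lay below the unexpressed level.

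Among the inhibitors, TIMP3 fell in G10 and TIMP2 rose in A7, while TIMP1 and TIMP4 passed no test. TIMP3, which binds to the matrix and also inhibits ADAM17 and several ADAMTS proteases, read 11.23, 11.29, 11.61 and 11.31 on the G10 arrays, against 12.24, 12.15, 12.22 and 11.94 on the PCDNA3 arrays and 11.69, 11.76, 11.77 and 11.82 on the A375 arrays. Every G10 array lay below every control array. TIMP3 fell by 0.59 in G10 vs control (SE 0.08, adjusted p = 0.000137). Its other probe set read 8.49, 8.76, 9.12 and 8.83 in G10, against 9.87, 9.81, 9.96 and 9.57 in PCDNA3 and 9.32, 9.14, 9.52 and 9.44 in A375 cells, and fell by 0.78 (SE 0.11, adjusted p = 0.000106). Both probe sets thus separated G10 from control without overlap. Against A375 cells alone the fall was 0.40 (adjusted p = 0.0111), and against PCDNA3 cells alone it was 0.78 (adjusted p = 5.4e-05). In A7, TIMP3 read 11.91, 11.88, 11.70 and 11.71, with a change of -0.14 (adjusted p = 0.426), and TIMP3 fell by 0.44 in G10 vs A7 (SE 0.10, adjusted p = 0.00487). Without G10 replicates 1 and 2 this difference was -0.34 (adjusted p = 0.0635).

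TIMP2, which inhibits MMPs and also brings pro-MMP2 to the membrane enzyme MMP14, read 10.51, 10.62, 10.38 and 10.46 on the A7 arrays, against 10.20, 9.96, 9.91 and 10.26 on the PCDNA3 arrays and 10.11, 10.28, 10.07 and 10.06 on the A375 arrays. All A7 arrays were above all control arrays. TIMP2 rose by 0.39 in A7 vs control (SE 0.08, 95% interval 0.21 to 0.56, adjusted p = 0.00941). In G10 it read 9.92, 9.89, 9.95 and 10.06, which overlapped the controls, with a change of -0.15 (95% interval -0.32 to 0.02, adjusted p = 0.253). TIMP2 fell by 0.54 in G10 vs A7 (SE 0.09, adjusted p = 0.000824), and the arrays of the clones did not overlap.

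TIMP1, a secreted inhibitor of most MMPs, read 12.24, 12.11, 12.14 and 12.12 in A7 and 12.32, 12.28, 12.33 and 11.96 in G10, against 12.50, 12.18, 12.16 and 12.19 in PCDNA3 and 12.21, 12.22, 12.07 and 12.13 in A375 cells. The 4 groups overlapped. Its change was -0.06 in A7 (95% interval -0.24 to 0.13, adjusted p = 0.819) and 0.02 in G10 (95% interval -0.17 to 0.20, adjusted p = 0.938). TIMP4, an inhibitor best known from heart and vessels, stayed near the unexpressed level, at 5.30, 5.26, 5.54 and 5.55 in A7 and 5.46, 5.30, 5.04 and 5.23 in G10, against 5.18, 5.36, 5.31 and 5.18 in PCDNA3 and 5.13, 5.19, 5.34 and 5.36 in A375 cells. Its change in A7 was 0.15 (95% interval -0.04 to 0.35, adjusted p = 0.426), and in G10 the 95% interval of its change was -0.19 to 0.19 (adjusted p = 0.994).

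Of the 6 membrane-type MMPs, 5 were expressed, and 3 of them were called in a clone. MMP16, the transmembrane enzyme MT3-MMP, read 9.14, 9.37, 9.08 and 9.14 on the A7 arrays, against 9.99, 10.05, 9.96 and 9.80 on the PCDNA3 arrays and 10.26, 10.16, 10.04 and 10.17 on the A375 arrays. All A7 arrays lay below all control arrays, 1.83-fold on average. MMP16 fell by 0.87 in A7 vs control (SE 0.10, 95% interval -1.09 to -0.65, adjusted p = 8.14e-05). On the G10 arrays it read 10.32, 10.43, 9.84 and 9.98, which overlapped the controls, and the change was 0.09 (adjusted p = 0.655). MMP16 was 0.96 higher in G10 vs A7 (SE 0.12, adjusted p = 3.9e-05). The other probe set read 8.16, 8.14, 8.09 and 8.13 in A7, against 8.50, 8.97, 8.93 and 8.79 in PCDNA3 and 9.35, 9.21, 9.19 and 9.31 in A375 cells, and fell by 0.90 (adjusted p = 0.00223). On that probe set G10 read 9.78, 9.82, 8.86 and 9.02, with a change of 0.34 (adjusted p = 0.167), and G10 vs A7 was 1.24 (adjusted p = 0.000163). The probe sets thus gave the same calls.

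**Figure D3:**
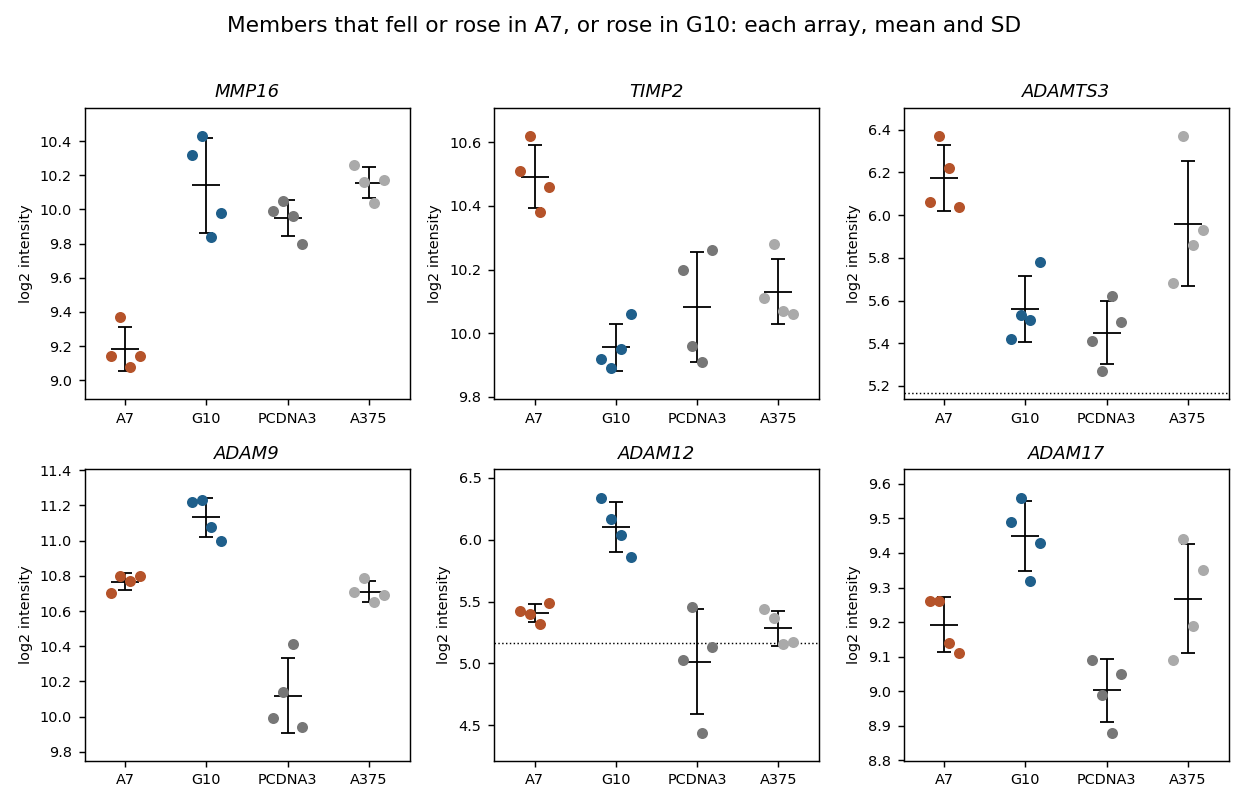
Log2 intensity of MMP16, TIMP2, ADAMTS3, ADAM9, ADAM12 and ADAM17 on each array of A7, G10, PCDNA3 and A375 cells. Bars give the group mean and SD (n = 4), and a dotted line marks the unexpressed level of 5.17 where the axis reaches it. The A7 arrays of MMP16 sit at 9.08 to 9.37, below every other group, and those of TIMP2 at 10.38 to 10.62, above every other group.

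MMP17, the GPI-anchored enzyme MT4-MMP, read 6.70, 6.86, 6.75 and 6.73 on the G10 arrays, against 7.39, 7.33, 7.33 and 7.35 on the PCDNA3 arrays and 7.56, 7.50, 7.42 and 7.41 on the A375 arrays. The G10 arrays lay close together, and all were below all other arrays. MMP17 fell by 0.65 in G10 vs control (SE 0.09, adjusted p = 5.71e-05) and by 0.55 in G10 vs A7 (SE 0.10, adjusted p = 0.000946), where A7 read 7.26, 7.06, 7.31 and 7.62. In A7 vs control the change was -0.10 (adjusted p = 0.645).

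MMP15, the transmembrane enzyme MT2-MMP, split the G10 arrays, with 8.06, 7.96, 6.36 and 6.06 for replicates 1 to 4. The PCDNA3 arrays read 7.42, 7.74, 7.58 and 7.41 and the A375 arrays 8.47, 8.30, 8.52 and 8.47, so replicates 1 and 2 of G10 lay between the controls and replicates 3 and 4 below both. MMP15 fell by 0.88 in G10 vs control at an adjusted p close to the limit (SE 0.29, adjusted p = 0.0485). Without G10 replicates 3 and 4 the change was 0.02 (adjusted p = 0.943), and without replicates 1 and 2 it was -1.78 (adjusted p = 3.33e-07). The call was lost in 14 of the 16 fits that left out 1 array, those without any A375, PCDNA3 or A7 array and those without G10 replicate 3 or 4, with adjusted p up to 0.197. With PCDNA3 cells alone as control the change was -0.43 (adjusted p = 0.489). A7 read 7.53, 7.63, 7.76 and 7.85, with a change of -0.30 (adjusted p = 0.695).

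MMP14, MT1-MMP, which activates pro-MMP2 and cuts collagen at the cell surface, read 7.87, 7.83, 7.94 and 8.19 in A7 and 8.79, 8.65, 8.12 and 8.02 in G10, against 8.13, 8.20, 7.93 and 8.20 in PCDNA3 and 8.48, 8.27, 8.19 and 8.18 in A375 cells. All groups overlapped with at least 1 other, and G10 replicates 1 and 2 read highest. The change was -0.24 in A7 (95% interval -0.52 to 0.04, adjusted p = 0.394) and 0.19 in G10 (95% interval -0.09 to 0.48, adjusted p = 0.389). G10 vs A7 gave 0.43 (95% interval 0.11 to 0.76, adjusted p = 0.071), which did not pass.

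Among the secreted MMPs, the collagenase MMP1 fell in G10. MMP1, which cuts fibrillar collagen, read 4.71, 5.02, 5.05 and 5.08 on the G10 arrays, against 5.69, 7.16, 7.01 and 6.05 on the PCDNA3 arrays and 5.79, 5.71, 6.00 and 5.98 on the A375 arrays. All G10 arrays lay below the unexpressed level and all control arrays above it, and PCDNA3 cells varied most. MMP1 fell by at least 1.01 in G10 vs control (measured difference -1.21, SE 0.21, adjusted p = 0.000686). The measured difference was -0.90 against A375 cells alone (adjusted p = 0.0195) and -1.51 against PCDNA3 cells alone (adjusted p = 0.000478). On the A7 arrays MMP1 read 5.53, 5.48, 5.42 and 5.59, also below every control array, but the change of -0.67 did not pass (95% interval -1.11 to -0.22, adjusted p = 0.0837). G10 vs A7, at least 0.34 lower (measured difference -0.54), did not pass either (adjusted p = 0.172). Of the other collagenases, the neutrophil enzyme MMP8 had a change of 0.38 in G10 (adjusted p = 0.142), and MMP13 stayed below the unexpressed level.

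The gelatinases, which degrade denatured collagen and collagen type IV, passed no test. MMP2 read 8.37, 8.35, 8.18 and 8.36 in A7 and 8.35, 8.09, 7.43 and 8.27 in G10, against 8.57, 8.12, 7.35 and 8.55 in PCDNA3 and 8.27, 8.05, 7.78 and 8.04 in A375 cells. The groups overlapped, and replicate 3 was the lowest array in each of them. The change of MMP2 was 0.23 in A7 (95% interval -0.21 to 0.66, adjusted p = 0.66) and -0.06 in G10 (95% interval -0.49 to 0.38, adjusted p = 0.902). MMP9 was above the unexpressed level on 4 of 16 arrays, with 4.80, 5.12, 5.47 and 4.96 in A7 and 5.43, 4.88, 4.93 and 4.94 in G10, against 5.22, 5.22, 5.14 and 5.10 in PCDNA3 and 4.99, 4.92, 5.10 and 4.98 in A375 cells. The stromelysin MMP3 passed downward in G10 vs control (adjusted p = 0.0377) with both sides below the unexpressed level.

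**Figure D4:**
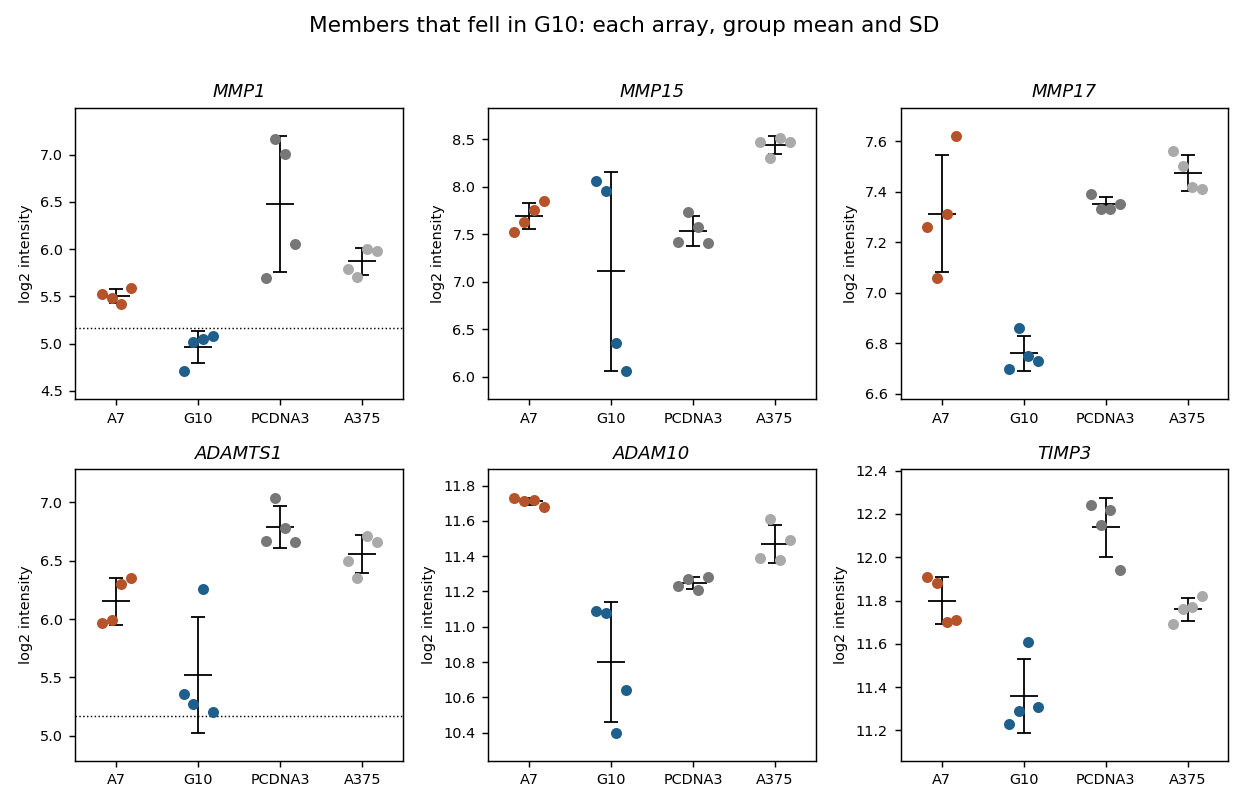
Log2 intensity of MMP1, MMP15, MMP17, ADAMTS1, ADAM10 and TIMP3 on each array of A7, G10, PCDNA3 and A375 cells, with the group mean and SD (n = 4) and, where the axis reaches it, a dotted line at the unexpressed level of 5.17. The G10 arrays lie below all PCDNA3 and A375 arrays for MMP1, MMP17, ADAMTS1, ADAM10 and TIMP3, while MMP15 reads 8.06 and 7.96 on 2 G10 arrays and 6.36 and 6.06 on the others.

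The ADAM sheddases moved in opposite directions in G10. ADAM10, which releases the ectodomains of Notch, cadherins and the amyloid precursor, read 11.09, 11.08, 10.40 and 10.64 on the G10 arrays, against 11.23, 11.27, 11.21 and 11.28 on the PCDNA3 arrays and 11.39, 11.61, 11.38 and 11.49 on the A375 arrays. All G10 arrays lay below all control arrays, with replicates 3 and 4 lowest. ADAM10 fell by 0.56 in G10 vs control (SE 0.11, adjusted p = 0.00168). The fall was 0.28 without G10 replicates 3 and 4 (adjusted p = 0.0161) and 0.83 without replicates 1 and 2 (adjusted p = 2.02e-05). On the A7 arrays ADAM10 read 11.73, 11.71, 11.72 and 11.68, above every control array, but the change of 0.35 did not pass (adjusted p = 0.0754). ADAM10 fell by 0.91 in G10 vs A7 (SE 0.12, 95% interval -1.17 to -0.64, adjusted p = 0.000102).

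ADAM17, the TNF-alpha converting enzyme, which also releases ligands of the EGF receptor, read 9.49, 9.56, 9.32 and 9.43 on the G10 arrays, against 9.09, 8.99, 8.88 and 9.05 on the PCDNA3 arrays and 9.09, 9.44, 9.19 and 9.35 on the A375 arrays. G10 lay above all PCDNA3 arrays and overlapped A375 cells. ADAM17 rose by 0.32 in G10 vs control (SE 0.08, adjusted p = 0.00908). With A375 cells alone as control the change was 0.18 (adjusted p = 0.212), and without G10 replicates 1 and 2 it was 0.24 (adjusted p = 0.134). A7 read 9.26, 9.26, 9.14 and 9.11, with a change of 0.06 (adjusted p = 0.786), and G10 vs A7 gave 0.26 (adjusted p = 0.068).

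ADAM9, a membrane sheddase, read 10.70, 10.80, 10.77 and 10.80 in A7 and 11.22, 11.23, 11.08 and 11.00 in G10, against 9.99, 10.14, 10.41 and 9.94 in PCDNA3 and 10.71, 10.79, 10.65 and 10.69 in A375 cells. G10 was above all other groups, A7 overlapped A375 cells, and PCDNA3 cells were below all other groups. ADAM9 rose by 0.72 in G10 vs control (SE 0.08, adjusted p = 1.84e-05), and by 0.43 against A375 cells alone (adjusted p = 0.00669). In A7 it rose by 0.35 against the control average (SE 0.08, adjusted p = 0.0192), but only 0.06 separated it from A375 cells (adjusted p = 0.83) and 0.65 against PCDNA3 cells alone (adjusted p = 0.000901). Without A7 replicate 2, 3 or 4 the call in A7 was lost (adjusted p up to 0.0621). ADAM9 was 0.36 higher in G10 vs A7 (SE 0.10, adjusted p = 0.0166), a call lost without A7 replicate 1 or G10 replicate 2 (adjusted p up to 0.0527). Without G10 replicates 1 and 2 this difference was 0.27 (adjusted p = 0.148). In PCDNA3 vs A375 it fell by 0.58 (SE 0.10, adjusted p = 0.0288), as given above.

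ADAM12, the protease meltrin alpha, read 6.34, 6.17, 6.04 and 5.86 on the G10 arrays, against 5.03, 5.46, 4.44 and 5.13 on the PCDNA3 arrays and 5.44, 5.37, 5.16 and 5.17 on the A375 arrays. The G10 arrays were above all others, and the control mean lay below the unexpressed level. ADAM12 rose by at least 0.84 in G10 vs control (measured difference 0.95, SE 0.14, adjusted p = 0.00019). A7 read 5.42, 5.40, 5.32 and 5.49, and G10 vs A7 gave a rise of 0.70 (SE 0.16, adjusted p = 0.00792). This difference was 0.54 without G10 replicates 1 and 2 (adjusted p = 0.0899).

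ADAM22, which has no protease activity and binds the secreted LGI proteins in neurons, read 7.95, 8.07, 7.44 and 7.49 in G10, against 7.07, 6.89, 7.10 and 7.28 in PCDNA3 and 7.62, 7.66, 7.56 and 7.53 in A375 cells. G10 replicates 1 and 2 were above all control arrays, and replicates 3 and 4 below the A375 arrays. ADAM22 rose by 0.40 in G10 vs control (SE 0.12, adjusted p = 0.0292), but the change was 0.15 against A375 cells alone (adjusted p = 0.589) and 0.13 without G10 replicates 1 and 2 (adjusted p = 0.553). Leaving out A375 replicate 4, PCDNA3 replicate 2 or G10 replicate 1 or 2 also lost the call (adjusted p up to 0.138). Its relative ADAM23 had a change of -0.46 in G10 (95% interval -0.88 to -0.04, adjusted p = 0.132). ADAM19, a sheddase of neuregulin, read 5.62, 5.26, 5.60 and 5.60 in A7, against 5.36, 6.31, 5.85 and 5.67 in PCDNA3 and 6.47, 6.56, 6.43 and 6.41 in A375 cells, and the change of -0.61 did not pass (adjusted p = 0.0688). The expressed members ADAM8, ADAM11, ADAM15 and ADAM33 passed no test in either clone, with changes of -0.10 to 0.12 in A7 and -0.18 to -0.01 in G10.

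The promoters of ADAM10, TIMP3, ADAM12 and ADAM17 are shown because these members moved in opposite directions in G10. None was found for ADAM9. A promoter is taken here as the 250 bases before the gene start in RefSeq (GRCh38.p14), written 5′ to 3′ on the strand of the gene, with GC boxes on either strand in capitals (GGGCGG or CCGCCC). ADAM10 lies at chr15:58749708-58749957 on the minus strand and TIMP3 at chr22:32801455-32801704 on the plus strand, and both fell. ADAM12 lies at chr10:126388478-126388727 and ADAM17 at chr2:9555831-9556080, both on the minus strand, and both rose.
ADAM10: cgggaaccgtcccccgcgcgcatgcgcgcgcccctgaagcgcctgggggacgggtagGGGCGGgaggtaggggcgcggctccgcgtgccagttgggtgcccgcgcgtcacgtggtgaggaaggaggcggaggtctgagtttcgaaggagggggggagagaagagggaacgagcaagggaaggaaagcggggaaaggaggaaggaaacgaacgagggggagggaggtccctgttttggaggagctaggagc
TIMP3: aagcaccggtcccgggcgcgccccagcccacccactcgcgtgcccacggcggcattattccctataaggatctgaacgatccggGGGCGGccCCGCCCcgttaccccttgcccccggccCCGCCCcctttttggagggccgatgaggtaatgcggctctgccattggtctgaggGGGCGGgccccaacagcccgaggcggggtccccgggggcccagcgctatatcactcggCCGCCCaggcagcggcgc
ADAM12: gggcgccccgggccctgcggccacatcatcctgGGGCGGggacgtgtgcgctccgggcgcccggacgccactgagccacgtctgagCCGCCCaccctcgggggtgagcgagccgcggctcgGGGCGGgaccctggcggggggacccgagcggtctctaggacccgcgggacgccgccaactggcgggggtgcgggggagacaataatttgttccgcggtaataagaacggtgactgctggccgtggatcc
ADAM17: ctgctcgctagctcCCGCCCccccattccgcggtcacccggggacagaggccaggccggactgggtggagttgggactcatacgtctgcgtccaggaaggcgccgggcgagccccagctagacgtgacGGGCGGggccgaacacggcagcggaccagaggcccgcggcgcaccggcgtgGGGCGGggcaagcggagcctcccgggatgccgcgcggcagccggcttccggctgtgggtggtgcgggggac

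These windows had a GC content of 68.4% for ADAM10, 72.4% for TIMP3, 73.6% for ADAM12 and 75.6% for ADAM17, and held 1, 5, 3 and 3 GC boxes in that order. A promoter was found for 37 of the 64 members. The GC box occurred in 24 of these 37 (64.9%), against 42.3% of all 27305 promoters. AP-1 sites (TGANTCA on either strand), which are known from the promoters of collagenase and stromelysin genes, occurred in 4 of the 37 (10.8%), against 6.6% of all. A TATA box (TATAAA on either strand) occurred in 7 of the 37 (18.9%), against 11.1% of all. Of the members called in G10 vs control with a size, 3 of 4 upregulated and 3 of 6 downregulated ones had a promoter. ADAM9, MMP1, MMP17 and ADAMTS1 had none and were not searched. All 6 promoters searched, those of ADAM12, ADAM17, ADAM22, ADAM10, MMP15 and TIMP3, held a GC box, and none held an AP-1 site or a TATA box in these letters.

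Among the ADAMTS proteases, ADAMTS1 fell in G10 and ADAMTS3 rose in A7. ADAMTS1, which cuts the proteoglycans aggrecan and versican, read 5.36, 5.27, 6.26 and 5.20 on the G10 arrays, against 6.67, 7.04, 6.78 and 6.66 on the PCDNA3 arrays and 6.50, 6.35, 6.71 and 6.66 on the A375 arrays. All G10 arrays were below all control arrays, with replicate 3 nearest to them. ADAMTS1 fell by 1.15 in G10 vs control, 2.22-fold (SE 0.17, 95% interval -1.50 to -0.80, adjusted p = 0.000139). On the A7 arrays it read 5.97, 5.99, 6.30 and 6.35, also below all control arrays, but the change of -0.52 did not pass (adjusted p = 0.0889). In G10 vs A7 it fell by 0.63 (SE 0.19, adjusted p = 0.0347), although the clones overlapped, and the call was lost without A7 replicate 3 or 4 or G10 replicate 1, 2 or 4 (adjusted p up to 0.104). Without G10 replicates 1 and 2 the difference was -0.43 (adjusted p = 0.277), and with only the arrays of the clones in the fit the adjusted p was 0.126.

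ADAMTS3, which removes the N-propeptide of procollagens and activates the growth factor VEGF-C, read 6.06, 6.37, 6.22 and 6.04 on the A7 arrays, against 5.41, 5.27, 5.62 and 5.50 on the PCDNA3 arrays and 5.68, 6.37, 5.86 and 5.93 on the A375 arrays. A7 was above all PCDNA3 arrays and overlapped A375 cells at replicate 2. ADAMTS3 rose by 0.47 in A7 vs control (SE 0.12, adjusted p = 0.0275), but the change was 0.21 against A375 cells alone (adjusted p = 0.497) and 0.72 against PCDNA3 cells alone (adjusted p = 0.00506). The call was lost without A375 replicate 3, PCDNA3 replicate 2 or A7 replicate 1, 2 or 3 (adjusted p up to 0.113). G10 read 5.42, 5.53, 5.51 and 5.78, and ADAMTS3 fell by 0.61 in G10 vs A7 (SE 0.14, adjusted p = 0.00487), without overlap of the clones. Without G10 replicates 1 and 2 this difference was -0.53 (adjusted p = 0.0513).

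ADAMTS9, a further proteoglycanase, passed no test. It read 7.18, 7.46, 6.81 and 6.99 in A7 and 6.85, 6.96, 6.83 and 6.13 in G10, against 6.11, 6.10, 6.24 and 5.90 in PCDNA3 and 7.37, 7.15, 6.85 and 6.80 in A375 cells. PCDNA3 cells lay below all A375 arrays, with a change of -0.96 that narrowly missed the limit (SE 0.18, adjusted p = 0.0507), and the change in A7 vs control was 0.55 (adjusted p = 0.0568). The other procollagen N-proteinases ADAMTS2 and ADAMTS14 passed no test, with changes of -0.29 (adjusted p = 0.0881) and -0.12 (adjusted p = 0.479) in G10.

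Several members lie next to each other on their chromosomes, with at most 5 protein-coding genes between neighbours. The 9 MMP genes on chromosome 11 included MMP1 and MMP3, which fell in G10, and only MMP1 and MMP8 of the 9 exceeded the unexpressed level in any group. On chromosome 8, ADAM9 and its neighbour ADAM32 both passed upward in G10, although ADAM32 stayed below the unexpressed level, as did ADAM5, ADAM18 and ADAM2. On chromosome 21, ADAMTS1 fell in G10, and its neighbour ADAMTS5 stayed below that level. Each gene of such a group was read from a probe set annotated to it alone, and cross-hybridization between these related genes was not tested.

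Regulators and partners of these proteases were followed in a list of 40 genes, of which 39 were measured and 36 expressed. In A7 vs control 5 of the 39 rose (3.46% of all clusters) and 2 fell (2.23%). In G10 vs control 3 rose (9.92% of all clusters) and 6 fell (7.9%), which makes 23.1% of the list against 17.8% of all clusters. Of the clusters with 1 symbol, tested alone, 26.7% were called in that comparison. In G10 vs A7 2 rose (7.83% of all clusters) and 8 fell (7.38%). A2M, the plasma inhibitor alpha-2-macroglobulin that traps proteases of every class, averaged 9.62 ± 0.49 in G10, against 11.76 ± 0.24 in PCDNA3 and 11.70 ± 0.48 in A375 cells (SD, n = 4 each), and fell by 2.11 (SE 0.22, adjusted p = 6.26e-06). The tetraspanins TSPAN5 and TSPAN14 accompany ADAM10 to the cell surface. TSPAN5 rose by 1.56 in A7 (adjusted p = 1.16e-08) and by 0.90 in G10 (adjusted p = 1.58e-06), while TSPAN14 fell by 1.11 in G10 (adjusted p = 7.98e-06) and had a change of 0.22 in A7 (adjusted p = 0.385). The other tetraspanins on the list, TSPAN10, TSPAN15, TSPAN17 and TSPAN33, were called in no comparison, with changes of -0.16 to 0.06 in G10 vs control.

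PCSK6, a convertase that can cut propeptides of the furin type, fell by 0.41 in A7 (adjusted p = 0.0413) and by 1.22 in G10 (adjusted p = 1.82e-06). The lysosomal cathepsins CTSL and CTSS fell in G10 by 0.91 (adjusted p = 2.66e-06) and 1.01 (adjusted p = 0.000121). CTSB, CTSD and CTSK, the other cathepsins on the list, were not called in G10 vs control, with changes of 0.12, 0.11 and -0.19. In A7 vs control CTSD rose by 0.74 (adjusted p = 0.000522) and CTSB by 0.36 (adjusted p = 0.0165). JUN, a subunit of AP-1, averaged 7.53 ± 0.49 in G10, against 6.73 ± 0.28 in PCDNA3 and 6.43 ± 0.08 in A375 cells, and rose by 0.95 (adjusted p = 0.000747). The AP-1 subunits FOS and FOSL1 were not called in G10 vs control, with changes of -0.23 and 0.09. DPP4, a membrane-bound serine protease, rose by at least 0.35 in A7 vs control (measured difference 1.90, SE 0.20, adjusted p = 2.81e-05), since it exceeded the unexpressed level on only 2 of 16 arrays. DPP4 fell by at least 0.35 in G10 vs A7 (measured difference -2.07, adjusted p = 1.78e-05).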

How the data were processed

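The authors summarized the 16 arrays by RMA (version not given in the sources used here), and the log2 intensities they deposited, 33297 transcript clusters per array, were taken as they stood. Array medians were 5.848 to 5.968. By the platform annotation 19460 clusters carried 1 gene symbol, 1754 several and 12083 none. Genes were named from clusters with 1 symbol.

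One mean per group was fitted to all clusters in limma 3.58.1 (R 4.3.3) with eBayes and Benjamini-Hochberg adjustment over all clusters, which was tested on simulated data. Figures were drawn with Python 3.11.15 and matplotlib 3.10.9. The members and lists were chosen with earlier results of these data known. Values on every array were given for members with a called change of at least 1 (log2) and, whatever their result, for the TIMPs, MMP1, MMP2, MMP9, MMP14, ADAM10 and ADAM17. Those of MMP15, MMP16, MMP17, ADAM9, ADAM12, ADAM19, ADAM22, ADAMTS3 and ADAMTS9 were added after their values were seen, and ADAM19, ADAM23, ADAMTS2, ADAMTS9, ADAMTS14 and MMP8, which no test called, were singled out likewise. Of the list of regulators, the 8 called genes with the largest changes were named, with the other tetraspanins, cathepsins and AP-1 subunits on the list. The labels name no batch. Alternatives changed the control, the arrays in the fit, the normalization, the variance model, the clusters tested, the limits and a replicate block, and left out each array in turn. They were read for the members and for counts over all clusters, not for the markers, CAT or the regulators. All motifs were searched on both strands.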

Additional observations from a re-analysis of the deposited data

Results flagged for a closer look

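Single arrays stood apart from the other 3 of their group in 8 of 80 groups of 4 arrays examined. The limit used would set about 1 in 20 groups apart by chance if arrays were independent and normally spread. Some of the genes examined were chosen after their values were seen, so the count cannot be read against that rate. In A7, replicate 2 was low for ADAM19 at 5.26 and replicate 3 was low for MMP2 at 8.18. In G10, replicate 1 was low for MMP1 at 4.71 and high for MMP9 at 5.43, replicate 3 was high for ADAMTS1 at 6.26, and replicate 4 was low for ADAMTS9 at 6.13 and for TIMP1 at 11.96. In PCDNA3 cells, replicate 1 was high for TIMP1 at 12.50.

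The changes of the 2 clones against their shared control differed by the test of G10 vs A7 for 9 expressed members. The change in G10 minus that in A7 was 0.96 for MMP16, 0.70 for ADAM12 and 0.36 for ADAM9. It was -0.91 for ADAM10, -0.63 for ADAMTS1, -0.61 for ADAMTS3, -0.55 for MMP17, -0.54 for TIMP2 and -0.44 for TIMP3.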

How the results depend on the processing

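Of 24 called changes of expressed members, 13 kept their call under every alternative, 11 lost it under at least 1, and 17 kept it without each array in turn. With G10 replicates 3 and 4 left out, an alternative chosen after seeing the data, MMP15 in G10 vs control reversed to 0.02. The count of 7 members in A7 vs control (5.69% of all clusters) was 3 with A375 cells alone as control (4.17%), 11 with PCDNA3 cells alone (4.72%), 11 with only the arrays compared (7.64%), 13 with array weights (8.21%), 12 with only clusters of 1 symbol (9.84%), 12 without G10 replicates 3 and 4 (8.54%), and 3 to 10 without each array in turn. At an adjusted p under 0.01 it was 2, that of G10 vs A7 was 7 and that of PCDNA3 vs A375 was 0. With an absolute log2 fold change of at least 1 the counts were 0 in A7 vs control, 2 in G10 vs control, 0 in G10 vs A7 and 0 in PCDNA3 vs A375. Without each array in turn the counts were 12 to 14 in G10 vs control, 9 to 14 in G10 vs A7 and 0 to 2 in PCDNA3 vs A375. For PCDNA3 vs A375 the count of 1 (0.123% of all clusters) was 4 with only the arrays compared (1.29%), 2 with a further quantile normalization, limma-trend, array weights, only clusters above the unexpressed level or only clusters with 1 symbol (0.189% to 1.75%), and 7 without G10 replicates 3 and 4 (4.06%) or 1 and 2 (3.15%). With the replicate number as a block, the counts were 8 in A7 vs control, 14 in G10 vs control, 13 in G10 vs A7 and 2 in PCDNA3 vs A375. Over all clusters, 3 of 24 same-number pairs deviated together at r over 0.1 (range -0.161 to 0.230), and 4 of 16 arrays correlated best with their own number. Whether the numbers pair the arrays for single genes, or as replicates 1 and 2 against 3 and 4, was not tested. The 4 groups share 1 estimate of the spread in the fit. Leaving out G10 arrays therefore altered the p values in A7 vs control and PCDNA3 vs A375, but not the changes themselves. For example, MMP16 in A7 vs control stayed at -0.87 and ADAM9 in PCDNA3 vs A375 at -0.58. The cause of the other differences was not tested. Genes below the unexpressed level have no measured size, and 4 arrays per group limit the precision.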
